A study of Mus musculus with 25 samples.

Results

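The comparison set the cortex of 5 transgenic mice given (-)-Vestitol alone against the cortex of 5 wild type mice, 10 of the 25 libraries of the series, chosen by their treatment and genotype labels. It asks what of the difference between the amyloid model and wild type was still present after vestitol. The vestitol mice were B6C3 males with the genotype APPswe, PSEN1dE9, aged 6 months, that had received 5 mg/kg of vestitol, a plant isoflavan, by intraperitoneal injection each day for 3 months. The model control mice were 5 B6C3 males of the same genotype and age on vehicle, and their values are given where they bear on a result. The wild type mice were 5 C57BL/6J males of the same age on vehicle. Salviolone, alone or together with vestitol, was given to the other groups, which entered the fit only. Vestitol and wild type mice differed in compound, transgenes and strain at once, so these cannot be told apart in this comparison. The model control mice shared strain and genotype with the vestitol mice, and the difference between those groups is given where it bears on what remained.

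In such mice the APPswe and PSEN1dE9 transgenes are driven by elements of the mouse prion protein gene and raise the production of amyloid-beta, which collects in plaques in the cortex. Microglia around plaques sense lipids and amyloid through the receptor TREM2 and its adaptor TYROBP, and take on a state with high expression of lysosomal, lipid-handling and chemokine genes. Astrocytes near plaques raise the filament protein GFAP, and complement proteins such as C1q and C4 mark synapses and deposits for removal.

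Libraries held 65336993 to 78331946 counts in vestitol mice, 77772965 to 93132986 in model control mice and 64008552 to 86378643 in wild type mice. Levels are in CPM (counts scaled to library size, with TMM factors), not divided by gene length, so they compare samples and not genes. Fold changes are log2, vestitol minus wild type unless stated, from edgeR's quasi-likelihood fit, with ± giving the standard error. A gene is called at an adjusted p (Benjamini-Hochberg over all genes tested) under 0.05, and "model control" counts are those of model control against the same wild type mice. All libraries were labelled cortex, and wild type libraries differed among themselves in genes of tissues next to the cortex. Wild type mouse 3 held 5316 CPM of Gh, growth hormone, which was at 0 in every vestitol library and at most 3.07 CPM in the other wild type libraries. Its pituitary score, the mean log2 CPM of 7 genes, was 5.92, against -3.63 to -3.01 in vestitol mice. The hypothalamus and basal forebrain score (18 genes) was -0.67, 0.22, 0.08, 0.39 and -0.04 in vestitol mice 1 to 5, against 1.39, -0.21, 2.84, 2.44 and 2.82 in wild type mice 1 to 5. Only wild type mouse 2 of these 5 was within the vestitol range. Model control mice 1 to 5 had scores of 1.59, 0.30, 0.05, 0.13 and -0.11. Wild type mice 1, 3, 4 and 5 and model control mouse 1 thus lay above the vestitol range, and the rest within it.

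**Figure D1:**
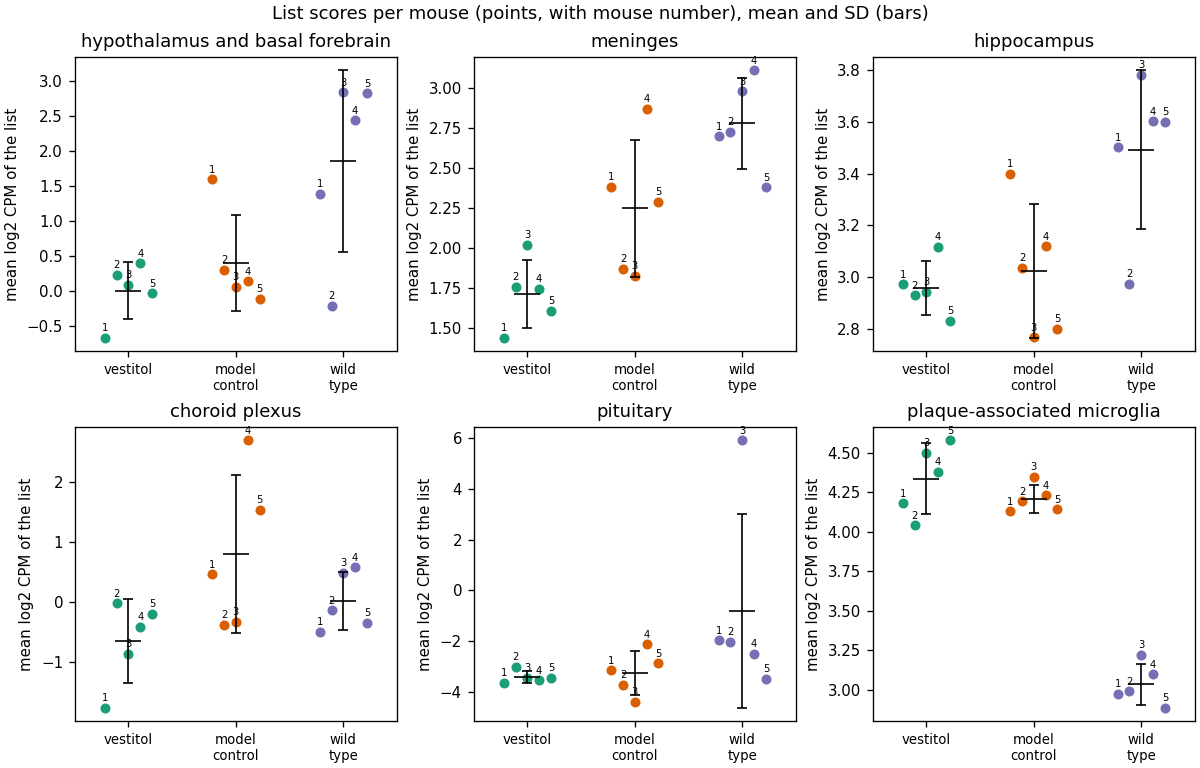
Mean log2 CPM of 6 gene lists in each mouse (y axis) for vestitol, model control and wild type mice; points carry the mouse number, and bars give the mean and SD of 5 mice. Wild type mouse 3 stands alone in the pituitary list at 5.92, wild type mouse 2 lies with the vestitol mice in the hypothalamus list at -0.21, and the plaque-associated microglia scores of vestitol mice (4.04 to 4.58) and wild type mice (2.89 to 3.22) do not overlap.

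In all, 2549 of 16515 genes differed between vestitol and wild type mice (15.4%), 1147 higher (6.95%) and 1402 lower (8.49%). In the model control 1913 differed (11.6%), 887 higher (5.37%) and 1026 lower (6.21%). Of those 1913 genes, 1401 were also called in the same direction in vestitol mice, which is 73.2% of the genes called in the model control and 55% of the genes called under vestitol. For genes higher in the model control the count was 642 of 887, and for genes lower it was 759 of 1026. Both comparisons use the same wild type mice. A further 512 genes were called in the model control and not under vestitol, and 1148 under vestitol and not in the model control. These counts do not show that the groups differed: between vestitol and model control mice the same test called 0 of 16515 genes (0%). The smallest adjusted p there was 0.251, 1249 genes had an unadjusted p under 0.05, and DESeq2 called 44. Such an unadjusted p in edgeR's test came in 12 of 15 choroid plexus genes and 10 of 13 mitochondrially encoded genes. It also came in 8 of 16 glucocorticoid-responsive and 7 of 18 clock genes, against 2 of 31 plaque-associated microglia genes. These lists were picked after their values were seen.

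The number of calls moved with single wild type mice. Leaving out wild type mouse 4 gave 1632 calls between vestitol and wild type mice, and leaving out wild type mouse 2 gave 3341. Wild type mouse 2 lay nearer the vestitol mean than the mean of the other 4 wild type mice in 58.9% of all genes tested, against 29.6% to 39.7% for each of the other wild type mice. Over the 2549 called genes, which were chosen by a difference between vestitol and wild type mice, it did so in 67.8%, against 2.12% to 9.61% for the others. Of the 20 plaque-associated microglia genes that rose, it lay nearer the vestitol mean in 3. With the hypothalamus and basal forebrain score as a covariate, 135 genes were called, 122 of them also called in the same direction without it, and 12 of the 135 belonged to the plaque-associated microglia list. Over the 2549 genes the median size of the log2 fold change was 0.29 with the covariate and 0.43 without it, the median standard error was 0.126 with it and 0.105 without it, and 99.4% of genes kept their sign.

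**Figure D2:**
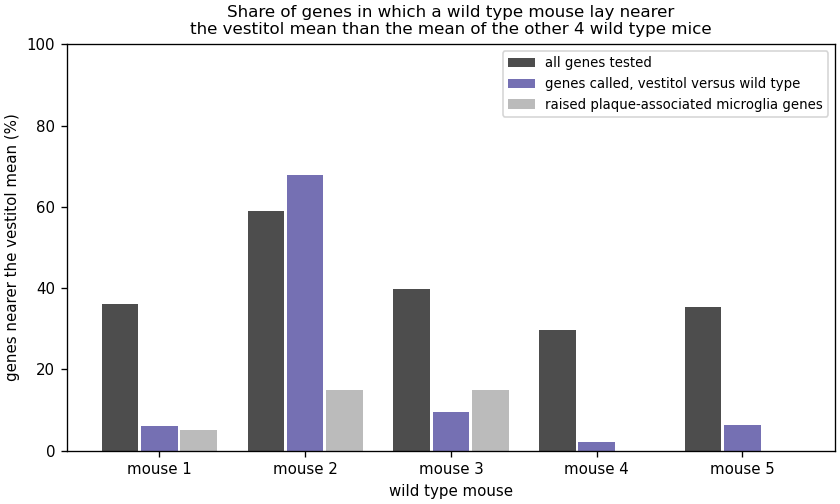
For each of the 5 wild type mice (x axis), the percentage of genes in which that mouse lay nearer the vestitol mean than the mean of the other 4 wild type mice (y axis), over all 16515 genes tested, over the 2549 genes called between vestitol and wild type mice and over the 20 raised plaque-associated microglia genes. Wild type mouse 2 stands highest over all genes (58.9%) and over the called genes (67.8%), whereas over the microglia genes wild type mice 2 and 3 both counted 3 of 20.

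App, the amyloid precursor and one of the transgenes (chr16:84746573-84970654, mm39), had 4213, 3897, 4535, 3972 and 3738 CPM in vestitol mice, against 1727, 1800, 1383, 1724 and 1724 CPM in wild type mice. No vestitol mouse overlapped with wild type, and the change was 1.28 ± 0.075 (adjusted p = 1.99e-11). Model control mice averaged 4262 ± 354 CPM (SD, n = 5), and vestitol minus model control was -0.066 (interval -0.22 to 0.087). Prnp, the prion protein gene whose elements the transgenes carry (chr2:131751848-131780349, mm39), had 1894, 1651, 1935, 1624 and 1634 CPM in vestitol mice, against 699.5, 639.9, 591, 673 and 656 CPM in wild type mice. Its change of 1.42 ± 0.07 had the smallest adjusted p of the comparison (5.06e-13).

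**Figure D3:**
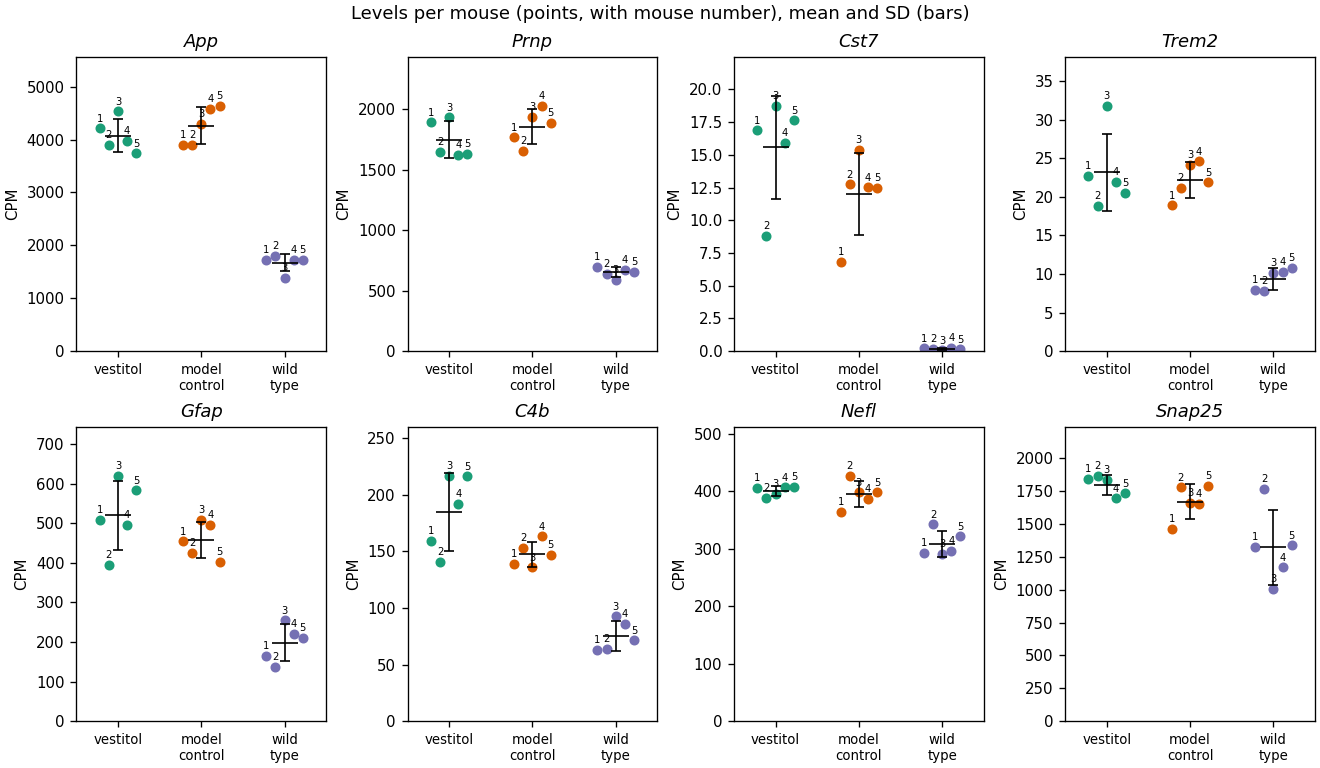
Level in CPM (y axis, from 0) of 8 genes in each mouse of the vestitol, model control and wild type groups; points carry the mouse number, and bars give the mean and SD of 5 mice. App, Prnp, Cst7, Trem2, Gfap, C4b and Nefl lie higher in every vestitol mouse than in every wild type mouse, whereas Snap25 of wild type mouse 2, at 1767 CPM, lies within the vestitol range.

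Genes of plaque-associated microglia rose in most members. Of 31 such genes tested, 20 rose and 1 fell in vestitol mice, with a median fold change of 0.75 against -3e-04 over all genes tested. In 19 of the 31, every vestitol mouse was above every wild type mouse, which 3.4% of all genes tested showed. In the model control 18 rose and 1 fell, with a median of 0.61. With the hypothalamus score as a covariate 12 rose and 0 fell, and the median was 0.86. In bulk tissue, more cells of a type and more RNA per cell cannot be told apart.

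The stretches upstream of 4 genes that rose are printed as examples and show which of 3 short motifs each holds. They do not represent the raised microglial, lysosomal or chemokine genes as a whole. Each is the 250 bases before the transcription start in RefSeq (GRCm38.p6), 5′ to 3′ on the gene's strand, with motif matches on either strand in capitals.
Cst7, plus strand, chr2:150570165-150570414: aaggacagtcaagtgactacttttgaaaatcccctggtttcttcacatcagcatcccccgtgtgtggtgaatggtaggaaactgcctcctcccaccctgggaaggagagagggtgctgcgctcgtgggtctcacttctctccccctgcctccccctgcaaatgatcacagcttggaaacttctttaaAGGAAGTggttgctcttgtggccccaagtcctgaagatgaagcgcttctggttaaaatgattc
Trem2, plus strand, chr17:48346151-48346400: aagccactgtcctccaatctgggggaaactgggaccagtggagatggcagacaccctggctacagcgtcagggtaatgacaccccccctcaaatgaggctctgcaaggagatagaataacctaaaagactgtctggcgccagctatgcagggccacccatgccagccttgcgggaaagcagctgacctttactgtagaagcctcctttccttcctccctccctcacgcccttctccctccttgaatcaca
Ctsd, minus strand, chr7:142387828-142388077: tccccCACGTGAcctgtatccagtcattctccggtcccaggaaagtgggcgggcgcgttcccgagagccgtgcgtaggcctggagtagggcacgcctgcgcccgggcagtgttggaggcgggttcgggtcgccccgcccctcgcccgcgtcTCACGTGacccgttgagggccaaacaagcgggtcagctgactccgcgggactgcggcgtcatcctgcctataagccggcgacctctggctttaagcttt
Cxcl10, minus strand, chr5:92348890-92349139: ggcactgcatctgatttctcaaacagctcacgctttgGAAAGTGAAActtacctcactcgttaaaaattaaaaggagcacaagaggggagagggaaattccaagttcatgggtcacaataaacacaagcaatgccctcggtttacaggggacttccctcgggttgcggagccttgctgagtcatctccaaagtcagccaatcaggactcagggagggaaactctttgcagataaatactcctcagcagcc
The motifs were an ETS core (AGGAAGT), the CLEAR core of lysosomal genes (TCACGTG) and an interferon-stimulated response element core (GAAA, any 2 bases, then GAAA). The ETS core occurs in 7.69%, the CLEAR core in 3.13% and the interferon core in 2.98% of the 32851 promoter windows of this length. Cst7 held the ETS core, Ctsd the CLEAR core and Cxcl10 the interferon core, and Trem2 held none of the 3. Of the 20 raised plaque-associated microglia genes, 15 had a window in the table, and 3 of these held the ETS core, 1 the CLEAR core and 1 the interferon core. Among the 7 raised lysosomal hydrolase and membrane genes, all with a window, 1 held the CLEAR core. Among the 7 raised interferon-responsive genes, 6 had a window and 1 held the interferon core. Itgax, Cd68, Ctsz, Gusb, Ifih1, Ifit2 and Xaf1 held none of the 3. A match describes letters in the window and is not a site of binding.

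Cst7, cystatin F, an inhibitor of lysosomal cathepsins (chr2:150412335-150420864, mm39), had 16.9, 8.80, 18.7, 15.9 and 17.6 CPM in vestitol mice, against 0.203, 0.176, 0.0730, 0.277 and 0.127 CPM in wild type mice. Vestitol mouse 2 was the lowest of its group and was still above every wild type mouse. The change was 6.47 ± 0.44 (adjusted p = 3.2e-09), and vestitol minus model control was 0.38 (interval -0.26 to 1.02). Itgax, the integrin chain CD11c, had 9.57, 4.67, 13.6, 9.23 and 9.51 CPM in vestitol mice, against 0.250, 0.132, 0.774, 0.277 and 0.532 CPM in wild type mice (4.56 ± 0.38, adjusted p = 1.15e-07). Vestitol mouse 2 was again the lowest of its group. Trem2 (chr17:48653429-48659301, mm39), the lipid receptor, had 22.8, 18.9, 31.8, 22.0 and 20.5 CPM in vestitol mice, against 7.92, 7.80, 10.1, 10.3 and 10.8 CPM in wild type mice. The groups were apart, by 1.30 ± 0.16 (adjusted p = 2.84e-05), and vestitol minus model control was 0.065 (interval -0.26 to 0.39). Its adaptor Tyrobp had 30.7 ± 4.88 CPM in vestitol mice and 11.03 ± 1.80 CPM in wild type mice (SD, n = 5 each; 1.48 ± 0.16). Clec7a, the glucan receptor dectin-1, was low and still separate, at 0.811 to 1.502 CPM in vestitol mice and 0.0313 to 0.365 CPM in wild type mice (2.95 ± 0.50). The inhibitory receptor Lilrb4a had 0.361, 0, 0.536, 0.863 and 0.823 CPM in vestitol mice and was at 0 in every wild type mouse, at least 12.5-fold higher when set against 3 counts per wild type library.

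Lysosomal and chemokine members rose as well. Cd68, a lysosomal membrane protein of phagocytes, had 19.8, 16.7, 22.6, 18.2 and 22.9 CPM in vestitol mice, against 10.8, 7.57, 9.20, 9.17 and 9.30 CPM in wild type mice (1.12 ± 0.11, adjusted p = 5.61e-07). The groups lay apart. Of the cathepsins, which are lysosomal proteases, Ctsd had 676 ± 100.5 CPM in vestitol mice and 379 ± 19.0 CPM in wild type mice (SD, n = 5 each; 0.83 ± 0.085). Ctsz rose by 0.96, Ctss by 0.75 and Ctsb by 0.39. The chemokine Ccl3 had 1.62 ± 0.683 CPM in vestitol mice and 0.204 ± 0.214 CPM in wild type mice (SD, n = 5 each; 3.02 ± 0.66), and Ccl4 changed by 3.59 ± 0.94. Axl, a receptor for dying cells, and Csf1, a growth factor for microglia, were called under vestitol (0.25 ± 0.062 and 0.40 ± 0.10) and not in the model control (0.11 and 0.26). Vestitol minus model control was 0.15 for Axl (interval 0.019 to 0.28, adjusted p = 0.584) and 0.14 for Csf1 (interval -0.062 to 0.34, adjusted p = 0.786). Clec7a, Lilrb4a, Axl, Csf1, the chemokines, Ctss, Ctsb and the members named next were picked after their values were seen.

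Timp2, an inhibitor of matrix metalloproteinases, was the member that fell. It had 269, 254, 261, 292 and 224 CPM in vestitol mice, against 532, 273, 476, 592 and 477 CPM in wild type mice (-0.85 ± 0.13, adjusted p = 0.000268). The range of the vestitol mice took in wild type mouse 2. Apoe, the lipid carrier, had 796 ± 104 CPM in vestitol mice and 708 ± 89.5 CPM in wild type mice (SD, n = 5 each) and was not called (0.17 ± 0.12, adjusted p = 0.386). Spp1, osteopontin (-0.74 ± 0.39), Gpnmb, a lysosomal glycoprotein (0.92 ± 0.39), and Lpl, lipoprotein lipase (0.27 ± 0.17), were not called either.

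**Figure D4:**
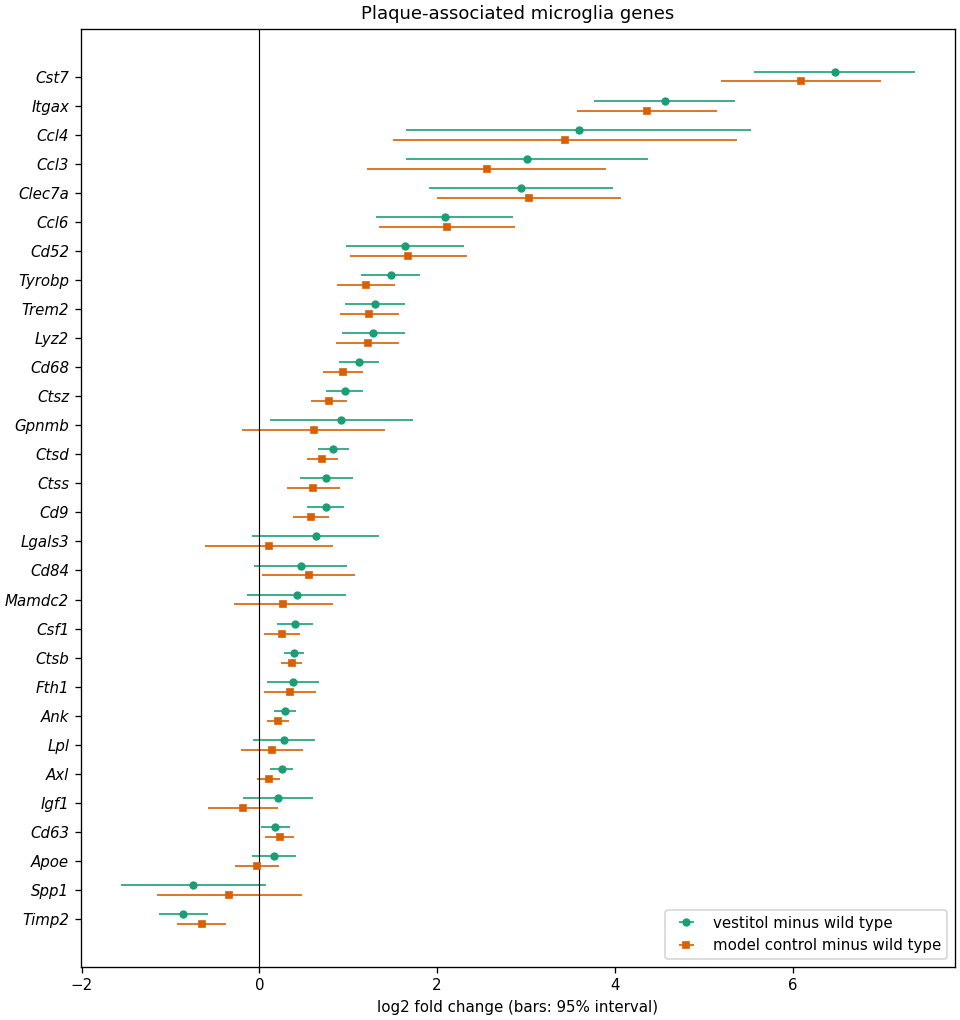
Log2 fold change against wild type (x axis, bars 95% interval) of 30 of the 31 plaque-associated microglia genes, in vestitol mice (circles) and in model control mice (squares), which share the 5 wild type mice; Lilrb4a, at 0 in wild type, is left out. Cst7 leads at 6.47 under vestitol and Timp2 is lowest at -0.85. The intervals of both groups overlap for each of the 30 genes, which is not a test between vestitol and model control mice. In edgeR's direct test between them, 2 of the 31 genes had an unadjusted p under 0.05, against 1249 of all 16515 genes tested, and 0 were called.

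Of 14 genes of homeostatic microglia, 4 rose and 0 fell under vestitol, and 1 rose in the model control, with a median of 0.30. Tgfbr1, a TGF-beta receptor, had 30.5, 26.4, 28.3, 26.4 and 26.5 CPM in vestitol mice, against 23.1, 15.8, 26.9, 20.4 and 18.8 CPM in wild type mice (0.40 ± 0.12, adjusted p = 0.0215). The vestitol range took in wild type mouse 3. Gpr34, a lysophospholipid receptor (0.84 ± 0.25), and Csf1r, the receptor for CSF1 (0.25 ± 0.082), rose too. Each of these 3 lost its call on leaving out single mice, and the count raised was 2 on omitting any 1 of vestitol mouse 3 or wild type mice 1 and 2, 1 on omitting wild type mouse 5 and 2 with limma on filtered FPKM. The purinergic receptor P2ry12, named after its values were seen, had 19.6 ± 0.584 CPM in vestitol mice and 17.7 ± 4.03 CPM in wild type mice (SD, n = 5 each) and was not called (0.15 ± 0.14). With the hypothalamus score as a covariate Tgfbr1 was among the members called higher and Cx3cr1, the fractalkine receptor, was called lower (-1.40, adjusted p = 0.0436), against -0.86 ± 0.34 (adjusted p = 0.0972) without it.

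Receptors for antibodies and microbial ligands rose in 6 of 13 members and fell in 0, against 5 and 0 in the model control. Fcer1g, the signalling chain shared by Fc receptors, had 4.76, 5.90, 6.79, 4.92 and 6.90 CPM in vestitol mice, against 2.47, 2.69, 3.26, 3.32 and 3.02 CPM in wild type mice (0.99 ± 0.17, adjusted p = 0.000504). The groups were apart. The activating receptors Fcgr1 (0.75 ± 0.14) and Fcgr3 (0.61 ± 0.12) and the inhibitory receptor Fcgr2b (0.86 ± 0.19) rose with it. Tlr2, a receptor for bacterial lipoproteins, had 2.85 ± 0.658 CPM in vestitol mice and 1.25 ± 0.183 CPM in wild type mice (SD, n = 5 each; 1.19 ± 0.23). With the hypothalamus score as a covariate Fcer1g and Fcgr3 were called.

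Of 25 genes of reactive astrocytes, 4 rose and 0 fell under vestitol, against 3 and 0 in the model control, and the median was 0.04. Gfap (chr11:102778162-102788026, mm39), the astrocyte filament protein, had 508, 395, 619.6, 496 and 583 CPM in vestitol mice, against 165, 137, 255, 221 and 210.1 CPM in wild type mice. Every vestitol mouse was above every wild type mouse, by 1.40 ± 0.15 (adjusted p = 5.59e-06), and vestitol minus model control was 0.19 (interval -0.12 to 0.49). Serpina3n, a serine protease inhibitor, had 30.4, 29.6, 35.0, 34.9 and 46.5 CPM in vestitol mice, against 12.2, 16.9, 14.7, 16.2 and 18.2 CPM in wild type mice (1.17 ± 0.15, adjusted p = 3.15e-05). Vestitol mouse 5 was the highest. The asparaginase Aspg (0.80 ± 0.17) and the oncostatin M receptor Osmr (0.71 ± 0.21) also rose, Osmr without its call on omitting any 1 of vestitol mice 1 and 5 or wild type mice 1 and 4. Gfap and Serpina3n were the 2 still called with the hypothalamus score as a covariate. Among 12 general astrocyte markers 2 rose and 2 fell, the glutamate transporter Slc1a2 (0.19 ± 0.061) and glutamine synthetase Glul (0.21 ± 0.074) against the water channel Aqp4 (-0.31 ± 0.094) and the transporter Slc1a3 (-0.19 ± 0.065). None of these 4 was called without wild type mouse 4.

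Complement genes moved in both directions. Of 17 tested, 7 rose and 3 fell under vestitol, against 7 and 0 in the model control. C4b, which tags surfaces for removal, had 159, 140.5, 217, 192 and 216 CPM in vestitol mice, against 62.7, 63.9, 92.6, 86.1 and 71.4 CPM in wild type mice (1.29 ± 0.15, adjusted p = 2.01e-05). The groups lay apart. Model control mice had 148 ± 11 CPM (SD, n = 5), and vestitol minus model control was 0.33 (interval 0.021 to 0.63, adjusted p = 0.622). The 3 chains of C1q, which starts the classical pathway, rose together, C1qa by 0.89, C1qb by 0.75 and C1qc by 0.78. C1qa had 56.3 ± 10.7 CPM in vestitol mice and 30.3 ± 3.73 CPM in wild type mice (SD, n = 5 each). The anaphylatoxin receptor C3ar1 (1.13 ± 0.19), the integrin chain Itgb2 (0.81 ± 0.18) and the protease C1ra (1.35 ± 0.32) completed the raised members. The lowered members, C2 (-1.46 ± 0.46), Cfb (-0.59 ± 0.17) and the C1 inhibitor Serping1 (-0.78 ± 0.26), were named after their values were seen. C2 had 0.453 to 1.87 CPM in vestitol mice and 1.81 to 4.79 CPM in wild type mice, and Serping1 had 2.47 to 3.46 CPM in vestitol mice and 3.02 to 7.02 CPM in wild type mice. The count lowered was 1 on omitting any 1 of vestitol mice 2 and 5 or wild type mice 3 and 4, 0 on omitting vestitol mouse 4 and 1 with limma on filtered FPKM. The meninges score was 1.71 ± 0.21 in vestitol mice and 2.77 ± 0.28 in wild type mice (SD, n = 5 each), and its part in the lowered members was not tested. With the hypothalamus score as a covariate C4b, C1qa and C3ar1 were called higher and no member was called lower. The fold changes with the score were 0.82 for C1qb, 0.80 for C1qc, -1.19 for C2, -0.62 for Cfb and -0.93 for Serping1.

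Interferon-responsive genes rose in 7 of 30 members under vestitol and in 9 in the model control, and fell in 0 in either. Ifit2, an interferon-induced RNA-binding protein, had 16.8, 15.2, 16.8, 15.4 and 16.1 CPM in vestitol mice, against 11.4, 13.01, 12.0, 12.6 and 12.7 CPM in wild type mice (0.38 ± 0.11, adjusted p = 0.0158). Vestitol and wild type mice were separate, although the change was small. The RNA sensor Ifih1 (0.66 ± 0.18) and Ifit3b (0.59 ± 0.17), a relative of Ifit2, rose in the same way. Ifit1, Oas1a and Parp14 were called in the model control (0.94, 1.27 and 0.64) and not under vestitol (0.46, 1.01 and 0.30). Vestitol minus model control was -0.48 for Ifit1 (interval -0.99 to 0.035). The count raised was 4 on omitting any 1 of vestitol mouse 2 or wild type mice 4 and 5, 3 on omitting vestitol mouse 5, 12 with DESeq2 and 11 with limma-voom. No member was called once the hypothalamus score was a covariate, while the median was 0.56 with the score and 0.44 without it and Ifit2 stood at 0.41 and Ifit3b at 0.61 with it.

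Of 20 antigen presentation genes 2 rose (10%, against 6.95% of all genes) and 0 fell. The 2 were B2m, the light chain of MHC class I (0.71 ± 0.16), and H2-T23, a non-classical class I gene (0.71 ± 0.14). B2m had 57.2, 56.8, 73.7, 59.3 and 67.6 CPM in vestitol mice, against 37.4, 43.4, 55.1, 27.8 and 29.1 CPM in wild type mice. Wild type mouse 3 was the wild type mouse nearest the vestitol range. Of 19 cytokine and NF-kB genes 2 rose (10.5%) and 0 fell. Cxcl10, an interferon-induced chemokine, had 0.581, 0.653, 1.29, 1.06 and 1.32 CPM in vestitol mice, against 0.188, 0, 0.175, 0.185 and 0.101 CPM in wild type mice (2.90 ± 0.55, adjusted p = 0.000913). The groups were apart at low levels. Casp1, caspase 1 of the inflammasome, rose by 1.61 and lost its call on omitting vestitol mouse 4. Tnf, Il6 and Ccl2 were too low to be tested.

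Lysosomal hydrolase and membrane genes rose in 7 of 23 members and fell in 1 under vestitol, against 5 and 1 in the model control. Gusb, beta-glucuronidase, had 26.1, 24.8, 29.7, 25.1 and 29.2 CPM in vestitol mice, against 17, 17.1, 19.6, 15.2 and 15.6 CPM in wild type mice (0.68 ± 0.093, adjusted p = 5.02e-05). The groups lay apart. Hexa, a lysosomal hexosaminidase subunit (0.33 ± 0.073), Lamp2, a lysosomal membrane protein (0.26 ± 0.064), and the protease legumain, Lgmn (0.23 ± 0.04), rose by less. Gaa, acid alpha-glucosidase, fell, with 283, 300.0, 305, 354 and 304 CPM in vestitol mice, against 453, 305, 453, 526 and 441 CPM in wild type mice (-0.49 ± 0.10, adjusted p = 0.00137). Among wild type mice, mouse 2 fell in the vestitol range. The count raised was 4 on omitting any 1 of vestitol mouse 5 or wild type mouse 1 and 4 in a fit of only the 10 mice or with limma on unfiltered FPKM. Gusb and Lgmn were still called with the hypothalamus score as a covariate.

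Among 27 genes that make or clear amyloid-beta, 3 rose (11.1%) and 2 fell (7.41%), near the shares over all genes. Sorl1, which sorts the precursor away from cleavage, had 696, 663, 733, 722 and 799.6 CPM in vestitol mice, against 536, 698, 396, 486 and 499 CPM in wild type mice (0.47 ± 0.10, adjusted p = 0.00321). The exception was wild type mouse 2, inside the vestitol range. The metalloproteases Adam9 (0.21 ± 0.058) and Ide (0.19 ± 0.052) rose and the endothelin-converting enzyme Ece2 (-0.71 ± 0.20) fell, each losing its call on omitting wild type mouse 4. Aplp1, a relative of App, was lower (-0.14 ± 0.043) and lost its call on omitting any 1 of vestitol mice 1 and 5 or wild type mice 1, 4 and 5. Bace1, the beta-secretase, had 98.2 to 191 CPM in vestitol mice and 117 to 198 CPM in wild type mice and was not called (-0.36 ± 0.23, adjusted p = 0.341). No member was called once the hypothalamus score was a covariate, where Sorl1 stood at 0.25. Of 14 autophagy genes, 1 rose (7.14%, against 6.95% of all genes) and 1 fell (7.14%, against 8.49%). These were Map1lc3b (0.16 ± 0.052), which coats autophagosomes, and Atg5 (-0.24 ± 0.072), which helps to form them, both losing the call on leaving out single mice. The count of autophagy genes lowered was 2 with DESeq2, 3 with limma-voom or limma on FPKM, and 0 in a fit of only the 10 mice.

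**Figure D5:**
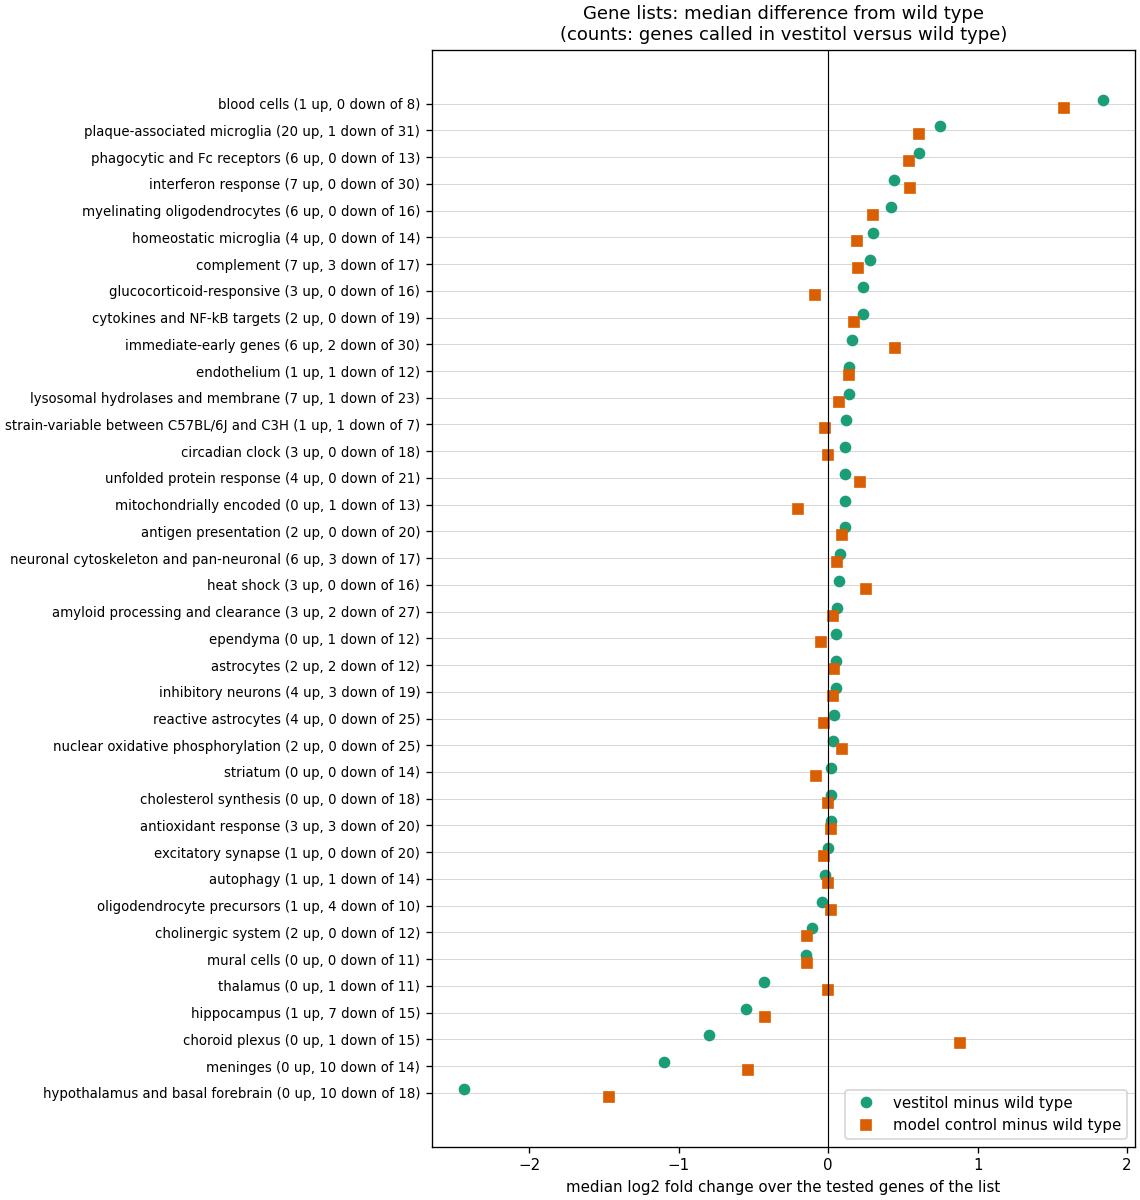
Median log2 fold change against wild type (x axis) of 38 of the 40 gene lists (y axis; the pituitary list, with a median of -4.95, and the transgene list, with 1.28, are left out), in vestitol mice (circles, with a gene at 0 in one group at its bound) and in model control mice (squares); brackets give the genes called between vestitol and wild type mice. The plaque-associated microglia list has a median of 0.75 with 20 of 31 genes raised, and the hypothalamus and basal forebrain list (-2.44) and the meninges list (-1.10) are the lowest of those plotted.

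Genes of the neuronal cytoskeleton and pan-neuronal genes rose in 6 of 17 members and fell in 3 under vestitol, against 6 and 2 in the model control. Nefl, the light neurofilament, had 405, 388, 396, 407 and 407 CPM in vestitol mice, against 293, 342, 291, 296 and 322 CPM in wild type mice (0.38 ± 0.049, adjusted p = 3.79e-05). The groups were apart, and Nefl was the 1 member called with the hypothalamus score as a covariate. Nefm, the medium neurofilament, had 478 ± 39.9 CPM in vestitol mice and 321 ± 72.9 CPM in wild type mice (SD, n = 5 each; 0.57 ± 0.11). Snap25, a protein of synaptic vesicle fusion, had 1843, 1866, 1839, 1697 and 1735 CPM in vestitol mice, against 1328, 1767, 1007, 1172 and 1339 CPM in wild type mice (0.44 ± 0.093). Of the wild type mice, mouse 2 alone was in the vestitol range. Uchl1, a neuronal ubiquitin hydrolase (-0.39 ± 0.071), and Map2, a dendritic microtubule protein (-0.34 ± 0.068), were lower in every vestitol mouse than in every wild type mouse, which 3.84% of all genes tested showed. Of 20 excitatory synapse genes 1 rose (5%, against 6.95% of all genes) and 0 fell. The gene was the NMDA receptor subunit Grin2a (0.30 ± 0.10, adjusted p = 0.0496). Grin2a lost its call on omitting any 1 of vestitol mice 1, 2, 3, 4 and 5 or wild type mice 1, 3, 4 and 5. In that list 2 rose and 2 fell with DESeq2, and 3 rose and 3 fell with limma-voom. A fit of only the 10 mice gave 0 raised and 2 lowered, and omitting wild type mouse 2 gave 4 raised and 3 lowered.

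Genes of inhibitory neurons rose in 4 of 19 members and fell in 3, against 6 and 3 in the model control. Lamp5, a marker of a cortical interneuron class, had 298, 288, 306, 283 and 348 CPM in vestitol mice, against 165, 269.5, 108, 114 and 136 CPM in wild type mice (0.94 ± 0.18, adjusted p = 0.0011). Closest to the vestitol mice was wild type mouse 2. Neuropeptide Y, Npy, rose (0.53 ± 0.14), and somatostatin, Sst (-0.34 ± 0.086), and the secreted protein reelin, Reln (-0.56 ± 0.10), fell. Calretinin, Calb2, which marks thalamic cells too, had 6.55, 6.26, 5.35, 7.82 and 5.75 CPM in vestitol mice, against 23.9, 8.77, 33.1, 38.9 and 27.4 CPM in wild type mice (-2.06 ± 0.35). The groups did not overlap, with wild type mouse 2 the lowest wild type mouse. The count raised was 7 on omitting wild type mouse 2, 2 on omitting wild type mouse 3 and 2 in a fit of only the 10 mice, and no member was called with the hypothalamus score as a covariate.

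In the cholinergic system 2 of 12 genes rose, the muscarinic receptors Chrm2 and Chrm3, and 0 fell. Chrm2 had 16.1, 16.3, 13.9, 16.5 and 16.6 CPM in vestitol mice, against 9.51, 11.8, 6.94, 8.83 and 10.2 CPM in wild type mice (0.75 ± 0.11, adjusted p = 0.000117). No vestitol mouse overlapped with wild type, model control mice had 15.3 ± 1.17 CPM (SD, n = 5), and Chrm2 was called with the hypothalamus score as a covariate. Chrm3 (0.50 ± 0.14) lost its call on omitting wild type mouse 4. Acetylcholinesterase, Ache, named after its values were seen, had 41.2 ± 4.198 CPM in vestitol mice and 49.9 ± 7.30 CPM in wild type mice (SD, n = 5 each) and was not called (-0.28 ± 0.10, adjusted p = 0.0691).

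Immediate-early genes, which neurons induce on firing, rose in 6 of 30 members and fell in 2 under vestitol, against 10 and 1 in the model control. Inhba, the activin A subunit, had 14.98, 17.4, 16.3, 21.6 and 23.8 CPM in vestitol mice, against 8.49, 13.4, 8.79, 7.03 and 8.82 CPM in wild type mice (1.02 ± 0.16, adjusted p = 0.000279). Both groups kept apart, and Inhba was the 1 member called with the hypothalamus score as a covariate. Homer1, a postsynaptic scaffold (0.51 ± 0.12), rose on leaving out each mouse, whereas Ier5 (0.69 ± 0.19) and the transcription factor Egr3 (0.45 ± 0.14) lost their calls without single mice, wild type mouse 4 among them. Jun, a subunit of the transcription factor AP-1, fell, with 34.0 ± 6.35 CPM in vestitol mice and 58.8 ± 12.7 CPM in wild type mice (SD, n = 5 each; -0.79 ± 0.14). Arc, a regulator of glutamate receptors, was called in the model control (1.24) and not under vestitol (0.88 ± 0.33, adjusted p = 0.076), and vestitol minus model control was -0.36 (interval -1.04 to 0.32). It had 766, 247, 422, 197 and 309.7 CPM in vestitol mice, against 144, 394, 158, 145 and 213 CPM in wild type mice. Vestitol mouse 1 and wild type mouse 2 were the highest of their groups. The count raised was 3 on omitting any 1 of vestitol mice 1 and 5 or wild type mice 1, 3 and 5, 2 on omitting wild type mouse 4 and 2 in a fit of only the 10 mice, and the count lowered was 1 on omitting any 1 of vestitol mice 2, 3 and 5 or wild type mice 3, 4 and 5 and 1 in a fit of only the 10 mice, with the replicate block or with limma on unfiltered FPKM.

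Of 13 mitochondrially encoded genes 0 rose and 1 fell under vestitol (7.69%, against 8.49% of all genes). In the model control 0 rose and 2 fell. The median was 0.11 under vestitol and -0.20 in the model control. The cytochrome oxidase subunit mt-Co3 had 176, 211, 182, 164 and 176 CPM in vestitol mice, against 190.1, 160.2, 197, 180.2 and 164 CPM in wild type mice (0.028 ± 0.11, adjusted p = 0.906). The groups overlapped, and model control mice, at 126 ± 24.3 CPM (SD, n = 5), were called lower than wild type (-0.50, adjusted p = 0.0066). Vestitol minus model control was 0.53 (interval 0.29 to 0.77, adjusted p = 0.251). The gene called under vestitol, mt-Atp8 of the ATP synthase (-0.54 ± 0.16), lost its call on omitting any 1 of vestitol mice 3 and 4 or wild type mice 1, 3 and 4. Of 25 nuclear genes of oxidative phosphorylation 2 rose (8%, against 6.95% of all genes) and 0 fell, against 5 and 0 in the model control. Those raised were Ndufb5 of complex I (0.19 ± 0.052) and Cox7a2 of the cytochrome oxidase (0.13 ± 0.045), which lost its call with the replicate block and on omitting any 1 of vestitol mice 1, 2 and 3 or wild type mice 1, 3 and 4. Cytochrome c, Cycs, was raised in the model control (0.22) and was not called under vestitol (0.031 ± 0.048), with vestitol minus model control at -0.19 (interval -0.29 to -0.092, adjusted p = 0.268).

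Of 16 heat shock genes 3 rose and 0 fell under vestitol, against 6 and 0 in the model control. Hspa4l, an HSP110 family member, had 239.9, 211, 198, 232 and 214 CPM in vestitol mice, against 169, 202, 172, 159 and 179.6 CPM in wild type mice (0.31 ± 0.072, adjusted p = 0.00384). Wild type mouse 2 lay within the vestitol range. The cochaperones Chordc1 (0.29 ± 0.085) and Dnaja1 (0.17 ± 0.052) also rose, and the count raised was 1 on omitting any 1 of vestitol mouse 1 or wild type mouse 4 and 1 in a fit of only the 10 mice. The chaperone genes Hsph1, Stip1 and Ahsa1 were called in the model control (0.33, 0.24 and 0.26) and not under vestitol (0.10, -0.015 and 0.10). Stip1, which links HSP70 and HSP90, had 170.4 ± 14.2 CPM in vestitol mice, 203 ± 12.0 CPM in model control mice and 172 ± 10.2 CPM in wild type mice (SD, n = 5 each). Its vestitol minus model control difference was -0.25 (interval -0.39 to -0.11, adjusted p = 0.3). In the unfolded protein response 4 of 21 genes rose, as in the model control, and 0 fell, among them Edem1, which directs misfolded glycoproteins to degradation (0.27 ± 0.065), and Sdf2l1 of the endoplasmic reticulum (0.72 ± 0.17). The count raised there was 2 on omitting any 1 of vestitol mice 1 and 5 or wild type mouse 4 and 2 in a fit of only the 10 mice.

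Of 20 antioxidant genes 3 rose (15%, against 6.95% of all genes) and 3 fell (15%, against 8.49%) under vestitol. In the model control 3 rose and 2 fell. Heme oxygenase 1, Hmox1, had 7.63 ± 1.33 CPM in vestitol mice and 4.94 ± 1.22 CPM in wild type mice (SD, n = 5 each; 0.63 ± 0.16). The mitochondrial superoxide dismutase Sod2 (0.23 ± 0.058) rose as well. The cystine transporter Slc7a11 (-0.59 ± 0.10), the glutathione transferase Gsta4 (-0.43 ± 0.088) and the cytosolic dismutase Sod1 (-0.18 ± 0.047) fell. Each was lower in every vestitol mouse than in every wild type mouse, which 3.84% of all genes tested showed. No member of the mitochondrial, heat shock, unfolded protein or antioxidant lists was called once the hypothalamus score was a covariate. With it Chordc1 stood at 0.33, Dnaja1 at 0.17, Sdf2l1 at 0.74, Edem1 at 0.25, Hmox1 at 0.48, Sod2 at 0.14 and Slc7a11 at -0.45.

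Of 16 glucocorticoid-responsive genes 3 rose and 0 fell under vestitol, against 0 and 1 in the model control. Klf9, a transcription factor induced by glucocorticoids, had 269.7, 259.7, 257, 264 and 287 CPM in vestitol mice, against 184, 258, 165, 160.4 and 196 CPM in wild type mice (0.47 ± 0.092, adjusted p = 0.00106). The range of the vestitol mice took in wild type mouse 2, and vestitol minus model control was 0.20 (interval 0.015 to 0.39, adjusted p = 0.617). The transcription factor Zbtb16 (0.71 ± 0.22) and the metallothionein Mt1 (0.22 ± 0.068) were the others, and the count raised was 1 on omitting any 1 of vestitol mice 3 and 5 or wild type mice 1, 4 and 5 and 1 in a fit of only the 10 mice. Of 18 clock genes 3 rose and 0 fell under vestitol, the transcription factors Hlf (0.68 ± 0.13), Npas2 (0.25 ± 0.065) and Nr1d2 (0.33 ± 0.11), against 3 and 2 in the model control. Nr1d2 lost its call on omitting any 1 of vestitol mice 1, 2, 3 and 4 or wild type mice 1, 3, 4 and 5. Dbp, a factor of the clock's output, had 80.2 ± 17.1 CPM in vestitol mice, 54.5 ± 9.24 CPM in model control mice and 78.4 ± 11.2 CPM in wild type mice (SD, n = 5 each). It was called in the model control (-0.52) and not under vestitol (0.031 ± 0.16), with vestitol minus model control at 0.56 (interval 0.23 to 0.89, adjusted p = 0.404). The hour at which tissue was taken is not given in the sources used here. Of 18 genes of cholesterol synthesis 0 were called by edgeR, and the smallest p were those of Insig1 (0.21 ± 0.11) and Mvk (-0.24 ± 0.10). Genes called in the model control and not under vestitol are named throughout from their values.

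Myelin genes rose in 6 of 16 members and fell in 0, against 2 and 0 in the model control. Mbp, myelin basic protein, had 1010, 1037, 1014, 1106 and 1074 CPM in vestitol mice, against 601, 932, 800.5, 690.2 and 877 CPM in wild type mice (0.43 ± 0.12, adjusted p = 0.0208). Vestitol and wild type mice were separate. The adhesion protein Mag (0.46 ± 0.13), the junction protein Cldn11 (0.59 ± 0.16) and the lipid enzyme Ugt8a (0.48 ± 0.15) rose by similar amounts. The count raised was 3 on omitting any 1 of vestitol mice 2 and 3, 2 on omitting vestitol mouse 4, 1 on omitting wild type mouse 1, 0 on omitting wild type mouse 4 and 3 with limma on unfiltered FPKM, and no member was called once the hypothalamus score was a covariate. The median was 0.51 with the score and 0.42 without it, and Mbp stood at 0.51, Mag at 0.55 and Ugt8a at 0.59 with it. Of 10 genes of oligodendrocyte precursors 1 rose and 4 fell, among them Pdgfra, the growth factor receptor of these cells, with 60.4 ± 3.40 CPM in vestitol mice and 84.7 ± 15.3 CPM in wild type mice (SD, n = 5 each; -0.49 ± 0.10). The count lowered was 2 on omitting any 1 of vestitol mouse 5 or wild type mouse 5. Of 12 endothelial genes 1 rose (8.33%, against 6.95% of all genes) and 1 fell (8.33%, against 8.49%). These were the efflux pump Abcb1a (0.28 ± 0.094) and Itm2a (-0.24 ± 0.071). Abcb1a lost its call on omitting any 1 of vestitol mice 2, 4 and 5 or wild type mice 1, 4 and 5, and Itm2a on omitting any 1 of vestitol mouse 5 or wild type mouse 5. Of 11 mural cell genes and 14 striatal genes 0 were called by edgeR, with the smallest p for Rgs5 (0.25 ± 0.09) and Penk (-0.43 ± 0.18).

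Genes of tissues next to the cortex differed as well. Of 18 hypothalamus and basal forebrain genes 10 fell and 0 rose under vestitol, against 7 and 0 in the model control. The count lowered was 6 with limma on filtered FPKM and 7 in a fit of only the 10 mice. Pomc, which is also in the pituitary list, was among those lowered and lost its call on omitting wild type mouse 3. The median was -2.44 with Ghrh, which was at 0 in every vestitol mouse, set at its bound, and -2.75 as fitted. Hap1, a protein abundant in hypothalamus, had 42.0, 45.2, 38.3, 60.3 and 41.6 CPM in vestitol mice, against 187, 53.8, 234, 253 and 182 CPM in wild type mice (-2.00 ± 0.30, adjusted p = 0.000269). Among wild type mice, mouse 2 fell in the vestitol range. Magel2, an imprinted gene of hypothalamic neurons, had 0.620, 1.23, 1.15, 2.46 and 0.418 CPM in vestitol mice, against 7.42, 2.86, 12.6, 13.6 and 9.02 CPM in wild type mice (-2.96 ± 0.45). The groups did not overlap, and Magel2 was the 1 member called with the score, of which it is part, as a covariate. Of 7 pituitary genes 6 fell, and the count was 3 on omitting any 1 of vestitol mice 1, 3 and 4, 2 on omitting any 1 of vestitol mice 2 and 5, 1 on omitting wild type mouse 3, 2 with counts divided by 4, 1 with a stricter filter and 0 with DESeq2, with limma-voom, in a fit of only the 10 mice, with the replicate block or with limma on FPKM. DESeq2 gave no adjusted p for 5 of the 7, and 0 were called once that score was a covariate. Of 15 hippocampal genes 1 rose and 7 fell, among them Wfs1, a membrane protein of the endoplasmic reticulum, with 83.1, 85.7, 81.0, 97.6 and 74.6 CPM in vestitol mice, against 182, 84.5, 190.2, 219 and 175 CPM in wild type mice (-1.01 ± 0.19). The exception was wild type mouse 2, inside the vestitol range, and no hippocampal gene was called once the hypothalamus score was a covariate, where Wfs1 stood at -0.48. Of 11 thalamic genes 1 fell (9.09%, against 8.49% of all genes), Calb2.

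Meningeal genes fell in 10 of 14 members under vestitol and in 2 in the model control, and rose in 0. Dcn, the collagen-binding proteoglycan decorin, had 3.65, 3.85, 2.51, 3.92 and 3.15 CPM in vestitol mice, against 14.7, 6.65, 19.4, 13.3 and 10.7 CPM in wild type mice (-1.92 ± 0.32, adjusted p = 0.000391). No vestitol mouse overlapped with wild type. Model control mice had 7.66 ± 2.96 CPM (SD, n = 5), and vestitol minus model control was -1.16 (interval -1.82 to -0.51, adjusted p = 0.318). Aldh1a2, which makes retinoic acid (-1.66 ± 0.31), the transporters Slc13a4 (-1.47 ± 0.36) and Slc6a13 (-1.15 ± 0.27) and the collagen chain Col1a1 (-0.91 ± 0.21) were lower too. The count lowered was 6 on omitting any 1 of vestitol mouse 1 or wild type mouse 4, and Aldh1a2 was the 1 member called once the hypothalamus score was a covariate. The median was -1.23 with the score and -1.10 without it, and Slc13a4 stood at -1.84 and Slc6a13 at -1.19 with it. Of 15 choroid plexus genes 1 fell (6.67%, against 8.49% of all genes), the prolactin receptor Prlr (-1.70 ± 0.42). The count lowered was 2 with DESeq2, 3 in a fit of only the 10 mice and 0 with limma on filtered FPKM. The choroid plexus median was -0.80 under vestitol and 0.88 in the model control. Ttr, transthyretin, had 1.65 to 11.3 CPM in vestitol mice, 9.25 to 418 CPM in model control mice and 2.61 to 19.2 CPM in wild type mice and was not called. Of 8 blood genes 1 rose (12.5%, against 6.95% of all genes), the leukocyte antigen Ptprc (0.55 ± 0.18). Ptprc lost its call on omitting any 1 of vestitol mice 3 and 5 or wild type mice 2 and 3. The count raised was 5 with DESeq2, 2 with a stricter filter and 0 with limma-voom or with limma on FPKM, and it was 0 when the hypothalamus score was a covariate. The globin gene Hbb-bs had 4.64 to 67.9 CPM in vestitol mice and 4.27 to 8.93 CPM in wild type mice.

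The genes that fell with the 10 strongest calls came from many functions. Slc6a7, the brain proline transporter, had 71.2, 83.9, 83.2, 73.1 and 73.7 CPM in vestitol mice, against 121, 104, 115, 129 and 118 CPM in wild type mice (-0.61 ± 0.074, adjusted p = 2.01e-05). The groups lay apart, and wild type mouse 2 was the lowest wild type mouse. Dnah5, a dynein of motile cilia and the 1 of 12 ependymal genes called (8.33% lowered, against 8.49% of all genes), had 6.24, 6.18, 6.30, 6.90 and 6.22 CPM in vestitol mice, against 14.4, 10.2, 15.7, 17.01 and 15.4 CPM in wild type mice (-1.19 ± 0.15). The count of ependymal genes lowered was 2 with DESeq2 or limma-voom, 2 in a fit of only the 10 mice and 3 on omitting wild type mouse 2. Pappa2, a protease of growth factor binding proteins, had 1.78 ± 0.597 CPM in vestitol mice and 14.8 ± 7.83 CPM in wild type mice (SD, n = 5 each; -3.05 ± 0.36). Lamb1, a laminin chain (-0.95 ± 0.12), Ctnnb1, beta-catenin (-0.43 ± 0.057), Chd3, a chromatin remodeller (-0.56 ± 0.072), and Usp11, a deubiquitinase (-0.62 ± 0.082), were lower, as were Ak5, an adenylate kinase (-0.81 ± 0.11), Ypel1 (-0.96 ± 0.13) and Sertm1 (-1.07 ± 0.14). All 10 were lower in every vestitol mouse than in every wild type mouse, which 3.84% of all genes tested showed. They were chosen by their p in this same comparison, which favours such separation and calls that last without single mice. All 10 were also called lower in the model control, which shares the wild type mice. They were called on leaving out each vestitol or wild type mouse in turn, and with the hypothalamus score as a covariate.

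Among genes called between vestitol and wild type mice, 6 had the smallest p between vestitol and model control mice, each with an adjusted p of 0.251 there. Alkbh1, a nucleic acid demethylase, had 16.2, 15.8, 15.7, 12.97 and 15.4 CPM in vestitol mice, 19.0, 20.6, 19.6, 20.3 and 19.6 CPM in model control mice, and 17.4, 18.2, 20.9, 19.7 and 17.2 CPM in wild type mice. The vestitol mice lay below both other groups, by -0.29 ± 0.076 on the log2 scale against wild type and -0.38 (interval -0.54 to -0.22) against the model control. Cib2, a calcium-binding protein (-0.50 ± 0.086), Magi3, a scaffold of cell junctions (-0.25 ± 0.055), and Slc24a3, a cation exchanger (-0.57 ± 0.081), were lower than in wild type mice. Ankrd12, an ankyrin repeat protein (0.32 ± 0.053), and Rnf103, a ubiquitin ligase (0.25 ± 0.071), were higher, Rnf103 without its call on omitting any 1 of vestitol mouse 1 or wild type mouse 3. None of the 6 was called in the model control, where their changes ran from -0.22 to 0.087. They were chosen for that comparison's p, so their difference from the model control is a description.

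Because strain and genotype coincide, 7 genes of a list drawn up as varying between C57BL/6J and C3H mice were tested. Whether each member, Crb1 among them, varies between these strains was not tested. Ide rose, losing its call on omitting wild type mouse 4, and Crb1, a polarity gene of the retina, fell. With the hypothalamus score as a covariate neither was called in the edgeR test. Ide then stood at 0.115 (adjusted p = 0.439) and Crb1 at -1.55 (adjusted p = 0.173). Crb1 had 0.529, 0.453, 0.291, 0.837 and 0.784 CPM in vestitol mice, against 4.91, 0.646, 5.84, 5.58 and 4.56 CPM in wild type mice (-2.89 ± 0.51). Wild type mouse 2 lay within the vestitol range. Nnt, the mitochondrial transhydrogenase that carries a partial deletion in C57BL/6J, had 24.5, 31.3, 26.2, 25.2 and 26.9 CPM in vestitol mice, against 25.1, 24.9, 24.2, 25.7 and 23.7 CPM in wild type mice. The groups overlapped (0.12 ± 0.16, adjusted p = 0.69), and model control mice had 33.7 ± 5.05 CPM (SD, n = 5).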

How the data were processed

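RNA of the cortex of 25 male mice was sequenced, 5 in each of 5 groups, and each library is 1 mouse. The deposited table of raw counts per gene held whole numbers, 44.3% of values from 4 to 39 being multiples of 4. A unit may thus be more than 1 read, and counting error may be understated for low genes. The fit estimated spread from the replicate mice, and counts divided by 4 gave 2643 calls between vestitol and wild type mice, against 2549. The authors also deposited FPKM values per gene, used only as an alternative. Per the submitters' processing notes, reads were trimmed with Trim Galore and aligned with STAR to mm39. Kits of both the TruSeq and the SMARTER name appear in the labels' protocols, and no source used here states the counting tool, annotation or strand setting. Without the strand setting, reads of overlapping or antisense genes cannot be told apart.

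Counts were tested in edgeR 4.0.16 (R 4.3.3) with TMM scaling (0.98 to 1.04), the quasi-likelihood F test with robust fitting, 1 coefficient per group over all 25 libraries, and Benjamini-Hochberg adjustment over 16515 of 21720 genes kept by filterByExpr (minimum count 10), which held 99.99% of counts. Tests were two-sided, and intervals are 95% intervals of the log2 fold change. List scores are means of log2 CPM with a prior count of 2. A count of 0 was bounded at 3 counts per library, which covers counting error only. On simulated data for vestitol against wild type mice (16319 genes), the fit recovered 48 of 100 genes changed by 0.5 and 74 of 100 changed by 1 (log2), with 3 false calls. Genes were simulated independently, without differences between mice shared across genes. The real libraries held such differences, so these rates may not carry over to them.

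The groups and the 40 gene lists (668 genes, 657 tested) were chosen with earlier results of these data known. By rule the text names App, Cst7, Trem2, Gfap and the transgene list. It also names in each direction the 10 strongest calls by adjusted p among genes whose log2 CPM averaged 1 or more, as many as 5 called members of each list in order of p (1 or 2 where none was called), the 6 genes called against wild type with the smallest p between vestitol and model control mice, and Nnt. A few genes that this rule names are not reported here. Some list members called in the model control, Itgb2, C1ra, Bace1, Cx3cr1, Ttr, Hbb-bs and those marked in the text were named after their values were seen. Alternatives used limma 3.58.1 and DESeq2 1.42.0. Replicate numbers did not pair mice: deviations of vestitol and wild type mice with the same number correlated at -0.08 to 0.087.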

Additional observations from a re-analysis of the deposited data

Results flagged for a closer look

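Within each group of 5 mice, 374 sets of values (the scores of the lists and the levels of the named genes in vestitol and in wild type mice) were checked for 1 mouse far from the other 4, with a gap to its neighbour over 0.71 of the whole range. Of these 41 stood out, where chance gives about 1 in 20 for independent sets of normally distributed values. CPM values need not be normal, and some sets overlap, as a list score and its genes do. The number flagged was therefore not tested against chance. Wild type mouse 3 held 13 of them and wild type mouse 2 held 9. Scores are mean log2 CPM.

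The list score of vestitol mouse 5 lay apart from the other 4 mice of its group for reactive astrocytes (2.399, others 1.778 to 1.92). The list score of vestitol mouse 1 lay apart from the other 4 mice of its group for immediate-early genes (5.996, others 5.143 to 5.383) and heat shock (7.295, others 6.71 to 6.87). The list score of vestitol mouse 2 lay apart from the other 4 mice of its group for thalamus (4.554, others 3.479 to 3.699). Vestitol mouse 3 lay apart in Aldh1a2 (3.571 CPM, others 2.312 to 2.453 CPM) and Chrm2 (13.87 CPM, others 16.06 to 16.6 CPM). Vestitol mouse 4 lay apart in Alkbh1 (12.97 CPM, others 15.39 to 16.18 CPM), Baiap3 (20.36 CPM, others 4.583 to 7.327 CPM), Dnah5 (6.904 CPM, others 6.18 to 6.3 CPM), Penk (303.8 CPM, others 170.8 to 199 CPM) and Reln (150.6 CPM, others 114.5 to 122.2 CPM). Vestitol mouse 4 lay apart in Zcchc12 (48.04 CPM, others 29.02 to 31.2 CPM). Vestitol mouse 2 lay apart in Cst7 (8.803 CPM, others 15.9 to 18.73 CPM). Vestitol mouse 5 lay apart in Glul (2525 CPM, others 2026 to 2119 CPM). Vestitol mouse 1 lay apart in Ide (56.92 CPM, others 50.6 to 51.68 CPM), Jun (45.05 CPM, others 29.75 to 33.44 CPM) and Slc6a13 (4.17 CPM, others 5.367 to 5.681 CPM).

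The list score of wild type mouse 3 lay apart from the other 4 mice of its group for transgene check (8.631, others 8.779 to 8.832), inhibitory neurons (5.779, others 5.922 to 5.955), unfolded protein response (5.921, others 5.551 to 5.643) and pituitary (5.923, others -3.493 to -1.974). Wild type mouse 3 lay apart in App (1383 CPM, others 1724 to 1800 CPM), Gh (5316 CPM, others 0 to 3.066 CPM), Hexa (66.64 CPM, others 50.71 to 53.11 CPM), Lhb (28.82 CPM, others 0.06257 to 0.426 CPM) and Pde10a (220.3 CPM, others 326.8 to 348 CPM). Wild type mouse 3 lay apart in Pomc (85.87 CPM, others 0.1846 to 1.457 CPM), Pou1f1 (19.97 CPM, others 0 to 0.2503 CPM), Prl (399.6 CPM, others 0 to 0.3525 CPM) and Rnf103 (29.28 CPM, others 33.48 to 34.95 CPM). Wild type mouse 2 lay apart in Crb1 (0.6463 CPM, others 4.561 to 5.84 CPM), Ece2 (24.38 CPM, others 56.25 to 64.91 CPM), Egr3 (191.7 CPM, others 126 to 143.2 CPM), Ier5 (100.4 CPM, others 40.01 to 55.61 CPM) and Inhba (13.43 CPM, others 7.026 to 8.819 CPM). Wild type mouse 2 lay apart in Map1lc3b (239.7 CPM, others 192.8 to 205.3 CPM), Npy (50.53 CPM, others 29.35 to 30.76 CPM), Trh (2.938 CPM, others 13.53 to 16.81 CPM) and Zbtb16 (120.8 CPM, others 57.94 to 72.97 CPM). Wild type mouse 5 lay apart in Dnaja1 (149.5 CPM, others 137.4 to 140.8 CPM). Wild type mouse 4 lay apart in Gpr34 (2.215 CPM, others 1.166 to 1.392 CPM).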

How the results depend on the processing

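Between vestitol and wild type mice, 2549 genes were called (1147 higher, 1402 lower), and in the model control 1913 (887 higher, 1026 lower). Fitting only the 10 mice of each contrast gave 1527 calls (625 higher, 902 lower) and 349 in the model control (159 higher, 190 lower). The hypothalamus score as a covariate gave 135 (72 higher, 63 lower) and 107 (59 higher, 48 lower), and a change of at least 1.5-fold gave 903 (293 higher, 610 lower) and 595 (236 higher, 359 lower). Leaving out 1 mouse gave 1632 (without wild type mouse 4) to 3341 (without wild type mouse 2), with 699 to 1574 higher and 933 to 1767 lower. In the model control it gave 954 to 2928 without the same mice, with 438 to 1420 higher and 516 to 1508 lower, and 1194 (564 higher, 630 lower) without model control mouse 2. Vestitol against model control mice gave 0 calls, 44 with DESeq2 (21 higher, 23 lower), and 0 to 2 on leaving out 1 mouse, with 0 to 2 higher and 0 lower, the 2 without model control mouse 1. The cause of these moves was not tested.

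DESeq2 (2955), limma-voom (3201), RLE scaling (2561), a stricter filter (2567), testing without a filter (2440), FPKM with a pseudocount of 0.1 or 1 and limma, no mitochondrial genes (2545) and counts divided by 4 (2643) kept the vestitol count within 1.5 times. With the replicate block it was 2510, 1903 in the model control and 0 against the model control; 2 of 5 vestitol mice correlated best with the wild type mouse of their own number. Leaving out wild type mice 2 and 3 together, chosen after seeing the data, gave 2977. Of the genes called by only the 10 mice, 1443 were among the 2549. For named genes, leaving out 1 mouse ended 200 calls, gained 5 and reversed 0. The other alternatives weakened 274 and reversed 2: Nnt (-0.085) with the covariate and Lhb (0.466) without wild type mice 2 and 3. Neither value passed the threshold. Common dispersion was 0.0483, and 5 mice a group limit what small changes can be called.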
